A study of Mus musculus with 9 samples.

Results

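The collagen genes of the mouse brain were read from Clariom S arrays as the genes whose single symbol in the platform annotation has the form of Col, a type number, a, and a chain number. There were 42 of them among 19505 genes with 1 symbol, and each was measured by 1 probe set of 22206. The 6 Col4a genes of basement membranes were set apart from the 6 genes of the fibrillar collagens I, III and V. The remaining 30 genes were grouped by molecular type, as 5 other fibrillar chains, 6 beaded filament chains, 3 network chains, 8 fibril-associated chains (FACIT), 4 transmembrane chains, 2 multiplexins and 2 others.

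Collagens are extracellular proteins whose chains wind into a triple helix, and each type is built from its own combination of chains. Collagen IV forms the sheet-like scaffold of basement membranes, which in brain surround the capillaries and lie under the pia. Fibrillar collagens form rope-like fibres, which in brain are found mainly in the meninges and around larger vessels, while the parenchyma holds little of them.

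The arrays came from male mice that arrived at 6 weeks of age, were acclimatized for 1 week and were kept on standard chow. C57BL/6JHamSlc-ob/ob mice received an extract of Vigna umbellata (VE), the rice bean, at 100 mg/kg by oral gavage for 42 days. Other C57BL/6JHamSlc-ob/ob mice received vehicle, and C57BL/6JHamSlc-+/+ mice (wild type) also received vehicle. There were 3 arrays per group, and nothing in the labels says more than that each is a sample of its own, so p-values measure the spread between these samples, which may be technical. Both ob/ob groups carry the ob mutation in all their cells, which removes leptin, so an effect of VE was measured in leptin-deficient animals alone. The part of the brain was not given, and samples of white adipose tissue or of mice given 50 mg/kg, both mentioned in the design text, were not analysed here.

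The brain label was checked on defining markers, given as log2 signal over the 9 arrays. Snap25 and Syt1, of synapses, reached 15.16 to 18.78 and 15.47 to 19.37, and Mbp, of myelin, reached 14.91 to 18.69. The adipocyte markers Adipoq, Plin1 and Cidec lay at 5.36 to 6.00, 3.95 to 5.39 and 5.20 to 6.03, below the median probe set at 7.13. VE array 2 was unlike the rest. It correlated at 0.962 to 0.970 with each other array, where the remaining 8 correlated at 0.979 to 0.993 with one another, and its median signal was 7.01, against 7.12 to 7.23. Values without it are given beside the group medians and the genes it moved far. Of the 42 collagens, 32 lay below the median probe set and 10 above it, so that most were read at low signal.

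No collagen gene passed in any comparison (limma, adjusted p under 0.05 over all 22206 probe sets, 3 arrays per group). Called were 0 of 42 when ob/ob vehicle was set against wild type (1.27% of all probe sets), 0 of 42 for VE against ob/ob vehicle (0.486%), and 0 of 42 for VE against wild type (0.0991%). At an unadjusted p under 0.05 there were 5 collagens in each of the 3 comparisons, 11.9% of the family, against 20.1%, 13.3% and 12.2% of all probe sets. The values below are therefore descriptions of collagen levels, and a p that misses the threshold does not show that the levels were alike. Some refits did call collagens. In ob/ob vehicle against wild type Col9a3 alone passed at adjusted p under 0.1 (5.42% of all probe sets), after quantile normalization (2.84%), after cyclic loess (3.64%) and after quantile normalization without VE array 2 (8.87%). Col4a6, Col5a1 and Col9a3 passed there without VE array 2 (13.4%) and with only both compared groups in the fit (11.8%). With array weights 4 collagens passed in ob/ob vehicle against wild type (16.2%), 2 in VE against ob/ob vehicle (14.9%) and 4 in VE against wild type (14.8%), shares of 9.52%, 4.76% and 9.52% that lie below those of all probe sets.

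The major collagen IV chains of vessels, Col4a1 and Col4a2, assemble into one molecule. Col4a1 had log2 signals of 6.87, 7.03 and 6.91 in VE mice, 6.89, 7.00 and 7.40 in ob/ob vehicle mice, and 6.48, 6.83 and 7.25 in wild-type mice. The 3 groups overlapped, and the wild-type mice alone spanned more than the distance between any of the group means. Col4a1 was higher by 0.24 (SE 0.233, limma adjusted p 0.587) in ob/ob vehicle than in wild type, lower by 0.16 in VE than in ob/ob vehicle (log2 change -0.16, adjusted p 0.824), and higher by 0.08 in VE than in wild type (adjusted p 0.906). Col4a2 had 5.43, 5.96 and 5.79 in VE mice, 5.90, 5.67 and 6.07 in ob/ob vehicle mice, and 5.49, 5.69 and 5.61 in wild-type mice. Its changes were close to those of its partner chain, at 0.28 (adjusted p 0.468), -0.15 (0.809) and 0.13 (0.825) in the same order of comparisons. The pair of genes lies head to head, with no other protein-coding gene between them. The window around the start of Col4a2 is shown because the 78 bases in capitals also belong to the start window of Col4a1 on the opposite strand (RefSeq, GRCm38.p6, chr8:11312555-11312854, plus strand, shared stretch 11312777 to 11312854).
Col4a2: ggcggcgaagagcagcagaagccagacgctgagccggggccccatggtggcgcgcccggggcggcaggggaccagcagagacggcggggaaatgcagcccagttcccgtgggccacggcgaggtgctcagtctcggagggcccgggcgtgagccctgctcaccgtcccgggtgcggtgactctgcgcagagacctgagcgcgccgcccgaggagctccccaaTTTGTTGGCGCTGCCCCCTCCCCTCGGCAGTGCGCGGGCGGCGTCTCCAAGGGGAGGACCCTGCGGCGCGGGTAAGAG
The shared stretch holds 1 copy of GGGCGG, the core of a GC box, on either strand, and 0 whole copies of CCAAT or TATAAA. The Col4a2 window holds 1 CCAAT, which runs across the edge of that stretch, and the Col4a1 window also holds 1. The GC box core was found on either strand in 59.5% of the 37 start windows of 34 collagens, against 35.7% of all 32851 windows of 300 bases. CCAAT was found in 32.4% against 37.4%, and TATAAA in 13.5% against 13.6%. A match describes the letters and not a site in use.

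Col4a3, Col4a4 and Col4a5 form another collagen IV molecule, best known from the kidney filter. Col4a3 had 6.04, 6.92 and 5.99 in VE mice, 6.19, 5.60 and 6.05 in ob/ob vehicle mice, and 5.90, 5.77 and 6.48 in wild-type mice. Its highest value was on VE array 2, and its log2 change in VE against ob/ob vehicle was 0.37 (adjusted p 0.621) with that array and 0.07 (adjusted p 0.911) without it. Col4a4 had 7.34, 7.06 and 7.15 in VE mice, 6.98, 7.31 and 7.69 in ob/ob vehicle mice, and 7.05, 6.25 and 7.23 in wild-type mice. Wild-type array 2 was the lowest of the 9 for Col4a4, and the groups overlapped (ob/ob vehicle against wild type 0.48, SE 0.272, adjusted p 0.336). Col4a5 had 4.75, 5.09 and 4.96 in VE mice, 4.91, 4.99 and 4.76 in ob/ob vehicle mice, and 4.44, 4.54 and 4.71 in wild-type mice. All 6 ob/ob arrays lay above the 3 wild-type arrays, with 4.75 against 4.71 at the nearest pair. Its change was 0.32 (SE 0.193, adjusted p 0.366) in ob/ob vehicle and 0.37 (adjusted p 0.463) in VE, each against wild type, and 0.05 (adjusted p 0.944) in VE against ob/ob vehicle.

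Col4a6, which joins Col4a5 in the basement membranes of smooth muscle and some epithelia, had the largest difference of the collagen IV genes. It had 5.94, 6.87 and 5.86 in VE mice, 6.25, 6.39 and 6.21 in ob/ob vehicle mice, and 5.69, 5.71 and 5.34 in wild-type mice. Every array of either ob/ob group was above every wild-type array. In ob/ob vehicle against wild type its change was 0.70 (SE 0.262), with an unadjusted p of 0.0187 and an adjusted p of 0.162. In VE against wild type it was 0.64 (adjusted p 0.354), and 0.32 (adjusted p 0.634) without VE array 2, the highest of the 9. Against ob/ob vehicle, the change of Col4a6 in VE was -0.06 (adjusted p 0.947), and -0.38 (adjusted p 0.312) without that array. Col4a5 and Col4a6 are also neighbours that point away from each other, and their start windows lie 842 bases apart and share no base. The window of Col4a6 is shown as the member of the group that differed most, with a GGGCGG match on the opposite strand in capitals (RefSeq, GRCm38.p6, chrX:141474027-141474326, minus strand).
Col4a6: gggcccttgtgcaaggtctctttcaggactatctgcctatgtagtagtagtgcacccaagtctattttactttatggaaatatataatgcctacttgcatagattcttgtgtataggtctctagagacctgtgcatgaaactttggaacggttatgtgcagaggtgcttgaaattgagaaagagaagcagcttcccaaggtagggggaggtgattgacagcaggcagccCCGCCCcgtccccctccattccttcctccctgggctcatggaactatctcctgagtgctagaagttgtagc

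As a group the 6 collagen IV genes had a median log2 change of 0.30 in ob/ob vehicle against wild type, with 5 of 6 positive, against 0.02 over all probe sets. All 6 lay below the median probe set. Probe sets below the median stood at 0.17 (71.7% positive) there, 0.07 in VE against wild type and -0.09 in VE against ob/ob vehicle. The collagen IV median in ob/ob vehicle against wild type was 0.15 after quantile normalization, 0.23 after centring of arrays and 0.16 after cyclic loess. Against wild type the VE group had a median of 0.30 with 6 of 6 positive, and 0.16 without VE array 2, 0.15 without wild-type array 2 and 0.46 without wild-type array 3. Set against ob/ob vehicle, VE had a median of -0.10, with 2 of 6 positive. It turned to 0.04, 0.02 and 0.02 under those 3 scalings and to 0.04 without VE array 1. It stayed negative without VE array 2, at -0.14 with 1 of 6 positive, and at -0.074 after quantile normalization without that array. Taken array by array from the wild-type mean, the collagen IV medians were 0.10, 0.45 and 0.24 in VE mice, 0.22, 0.29 and 0.51 in ob/ob vehicle mice, and -0.12, -0.02 and 0.27 in wild-type mice. Wild-type array 3 thus stood among the ob/ob arrays, and the groups overlapped.

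**Figure D1:**
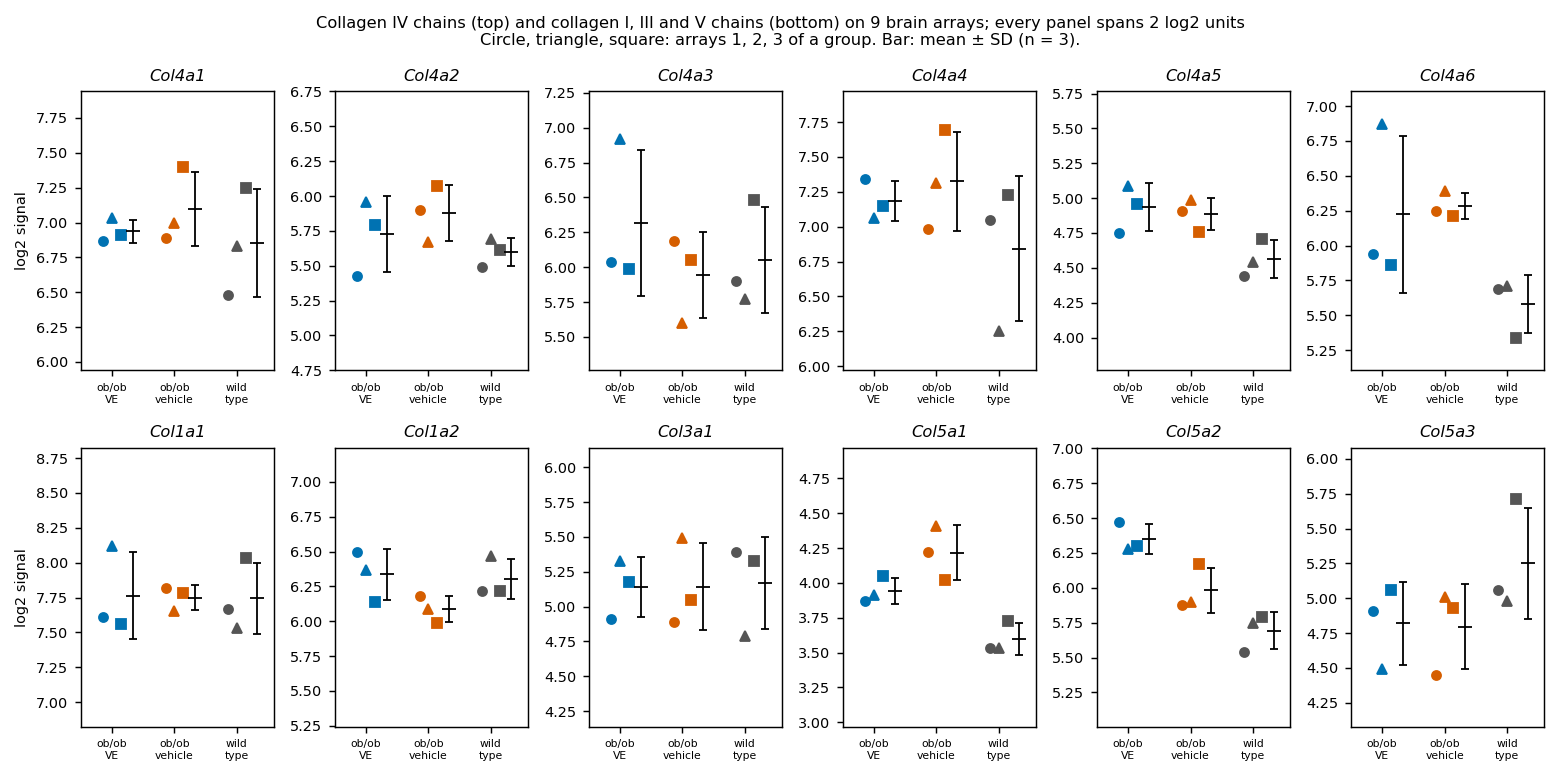
Log2 signal (vertical axis, 2 units in every panel) of the 6 collagen IV genes in the upper row and the 6 genes of collagens I, III and V in the lower row, with 1 point per array for VE, ob/ob vehicle and wild type and a bar for the mean and SD (n = 3). Col4a6 and Col5a1 show all 3 wild-type arrays below all ob/ob arrays, while Col1a1 and Col3a1 overlap in all groups.

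Collagens I and III are the main fibrillar collagens of connective tissue and vessel walls. Col1a1 had 7.61, 8.12 and 7.56 in VE mice, 7.82, 7.65 and 7.78 in ob/ob vehicle mice, and 7.67, 7.53 and 8.03 in wild-type mice. Its 3 changes lay between 0.01 and 0.02 (adjusted p 0.979 to 0.989), and the groups overlapped fully. Col1a2, the partner chain in collagen I, had 6.50, 6.37 and 6.14 in VE mice, 6.18, 6.09 and 5.99 in ob/ob vehicle mice, and 6.22, 6.47 and 6.22 in wild-type mice. It was the 1 collagen whose ob/ob vehicle arrays all lay below the wild-type arrays (-0.22, SE 0.194, adjusted p 0.557), and its VE and wild-type arrays overlapped (0.03, adjusted p 0.960). Col3a1 had 4.91, 5.33 and 5.18 in VE mice, 4.89, 5.49 and 5.05 in ob/ob vehicle mice, and 5.39, 4.79 and 5.33 in wild-type mice. The spread within each group exceeded the difference between the groups (adjusted p 0.959 to 0.996).

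Collagen V is a minor partner inside collagen I fibrils and limits their width, and its 3 chains did not run together. Col5a1 had 3.87, 3.91 and 4.05 in VE mice, 4.22, 4.41 and 4.02 in ob/ob vehicle mice, and 3.53, 3.53 and 3.73 in wild-type mice. All wild-type arrays lay below all ob/ob arrays, with a change of 0.62 (SE 0.193, unadjusted p 0.00677, adjusted p 0.109) in ob/ob vehicle and 0.35 (adjusted p 0.487) in VE, each against wild type. Without VE array 2, which takes no part in the first of these differences but enters the shared estimate of spread, the adjusted p of Col5a1 in ob/ob vehicle against wild type was 0.0331. Its start window is shown because it had the smallest p of collagens I, III and V in ob/ob vehicle against wild type, with both GGGCGG matches in capitals, the first on the other strand (RefSeq, GRCm38.p6, chr2:27886175-27886474, plus strand).
Col5a1: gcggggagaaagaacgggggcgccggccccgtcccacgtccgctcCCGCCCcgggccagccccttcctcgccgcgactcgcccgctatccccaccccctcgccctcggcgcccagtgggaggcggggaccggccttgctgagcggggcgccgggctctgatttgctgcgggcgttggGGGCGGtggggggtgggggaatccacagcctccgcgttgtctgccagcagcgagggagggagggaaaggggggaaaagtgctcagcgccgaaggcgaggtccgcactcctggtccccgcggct
Col5a2 had 6.47, 6.28 and 6.30 in VE mice, 5.88, 5.90 and 6.17 in ob/ob vehicle mice, and 5.54, 5.75 and 5.79 in wild-type mice. The 3 groups stood in 3 separate bands, with VE highest and wild type lowest. Its change was 0.66 (SE 0.192, unadjusted p 0.00448, adjusted p 0.203) in VE against wild type, 0.37 (adjusted p 0.442) in VE against ob/ob vehicle, and 0.29 (adjusted p 0.415) in ob/ob vehicle against wild type. Col5a2 was one of the members that VE array 2 did not lift, and its change in VE against wild type was 0.69 (adjusted p 0.174) without that array. Col5a3 had 4.91, 4.49 and 5.06 in VE mice, 4.45, 5.01 and 4.93 in ob/ob vehicle mice, and 5.06, 4.98 and 5.71 in wild-type mice. It differed in the other direction, at -0.45 (SE 0.256, adjusted p 0.339) in ob/ob vehicle and -0.43 (adjusted p 0.510) in VE, each against wild type, with overlapping groups.

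The 6 genes of collagens I, III and V had a median change of -0.01 in ob/ob vehicle against wild type, 0.02 in VE against ob/ob vehicle and 0.03 in VE against wild type, with 3, 4 and 4 of 6 positive. These medians lay near 0 and their signs were not stable. In VE against wild type the median was -0.054 without VE array 2 and -0.074 after quantile normalization without it, and 0.11 without wild-type array 3. In ob/ob vehicle against wild type it was -0.12 without wild-type array 2 and 0.10 without wild-type array 3. The SD of their median between arrays of a group was 0.130, and that of the collagen IV median was 0.176. These SDs describe single arrays, whereas the 0.30 of the collagen IV genes is a difference between means of 3 arrays. They therefore do not measure the uncertainty of that difference. The difference between both groups of genes was not tested, since the lists were chosen with results known. Col3a1 and Col5a2 are neighbours with no protein-coding gene between them, and their changes in VE against wild type were -0.03 and 0.66. The head-to-head neighbours Col4a1 and Col4a2 stood at 0.08 and 0.13 in that comparison.

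Among the other collagens Col9a3 had the smallest p in ob/ob vehicle against wild type and in VE against ob/ob vehicle. It encodes a chain of collagen IX, a fibril-associated collagen known from cartilage, and its probe set was in the brightest of 3 equal bands of probe sets by mean signal. Col9a3 had 9.85, 9.51 and 9.89 in VE mice, 10.34, 10.22 and 10.61 in ob/ob vehicle mice, and 9.34, 9.81 and 9.55 in wild-type mice. The 3 ob/ob vehicle arrays lay above all 6 others, and the VE and wild-type arrays overlapped. The change was 0.82 (SE 0.213, unadjusted p 0.00193, adjusted p 0.0692) in ob/ob vehicle against wild type, and over the alternatives it ran from 0.71 to 1.05 with an adjusted p of 0.00533 to 0.257. It passed in 6 of 19 refits, among them quantile normalization (1.03, adjusted p 0.0167) and the fit without VE array 2 (0.82, adjusted p 0.0121). In VE against ob/ob vehicle it was -0.64 (SE 0.213, unadjusted p 0.0101, adjusted p 0.204), and in VE against wild type 0.18 (adjusted p 0.748). These comparisons share the ob/ob vehicle arrays, so that opposite signs are in part set by the same 3 values. The partner chains Col9a1 and Col9a2 stood at 0.03 (adjusted p 0.953) and 0.17 (adjusted p 0.753) in ob/ob vehicle against wild type.

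Col28a1 and Col23a1 had a like pattern over the groups. Col28a1, a chain known from mouse peripheral nerve, had 8.59, 8.27 and 8.16 in VE mice, 8.69, 8.95 and 9.23 in ob/ob vehicle mice, and 8.28, 8.27 and 8.74 in wild-type mice. Its ob/ob vehicle arrays lay above its VE arrays (-0.62, SE 0.226, adjusted p 0.250) and met the wild-type range at 1 array (0.53 against wild type, SE 0.226, adjusted p 0.217). Col23a1, a transmembrane collagen, had 6.68, 6.20 and 6.75 in VE mice, 7.03, 7.04 and 7.12 in ob/ob vehicle mice, and 6.69, 6.43 and 6.52 in wild-type mice. Its 3 ob/ob vehicle arrays lay close together and above all 6 others. The change was 0.52 (SE 0.206, adjusted p 0.186) against wild type and -0.52 (adjusted p 0.287) in VE against ob/ob vehicle.

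Col2a1 and Col13a1 were high in VE, largely on 1 array. Col2a1, the main collagen of cartilage fibrils, had 4.52, 5.58 and 4.81 in VE mice, 4.20, 4.24 and 4.43 in ob/ob vehicle mice, and 4.39, 4.64 and 4.12 in wild-type mice. The VE arrays lay above the ob/ob vehicle arrays (0.68, SE 0.265, unadjusted p 0.0234, adjusted p 0.279), and without VE array 2 the change was 0.38 (adjusted p 0.357). Col13a1, a transmembrane collagen of the neuromuscular junction, had 6.98, 8.32 and 7.19 in VE mice, 6.46, 7.25 and 7.36 in ob/ob vehicle mice, and 6.61, 6.82 and 6.70 in wild-type mice. Its change in VE against wild type was 0.79 (SE 0.332, unadjusted p 0.0338, adjusted p 0.368), the largest of the 42 in that comparison, and 0.38 (adjusted p 0.674) without VE array 2. Against ob/ob vehicle the change of Col13a1 in VE was 0.47 (adjusted p 0.576) with that array and 0.06 (adjusted p 0.920) without it.

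**Figure D2:**
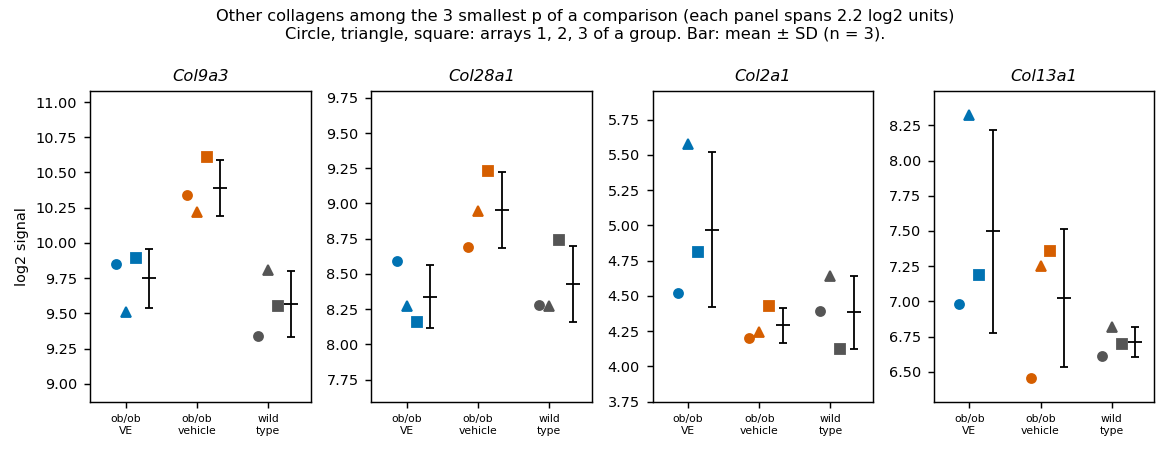
Log2 signal (vertical axis, 2.2 units in every panel) of the collagens outside types I, III, IV and V that were among the 3 smallest p of a comparison, with 1 point per array for VE, ob/ob vehicle and wild type and a bar for the mean and SD (n = 3). The ob/ob vehicle arrays of Col9a3 lie above all others, and VE array 2 (triangle) is far above the other VE arrays for Col2a1 and Col13a1.

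The remaining classes held no call, and their members are given by the median and range of their log2 changes. In ob/ob vehicle against wild type the 6 beaded filament chains (collagen VI) ranged from 0.0033 to 0.50 with a median of 0.27. Col6a3, a chain of the common collagen VI microfibril, and Col6a4 stood at 0.43 (adjusted p 0.293) and 0.50 (adjusted p 0.418). The 3 network chains ranged from 0.13 to 0.39, with Col10a1, of growth plate cartilage, at 0.39 (adjusted p 0.321) and Col8a1, of vessels and cornea, at 0.25 (adjusted p 0.515). The 8 FACIT chains ranged from 0.03 to 0.82 with a median of 0.17, and Col22a1, of muscle-tendon junctions, stood at 0.47 (adjusted p 0.308). The 4 transmembrane chains ranged from 0.01 to 0.52. The 5 other fibrillar chains ranged from -0.09 to 0.08, and Col11a1, which nucleates cartilage fibrils, stood at 0.08 (adjusted p 0.889). The multiplexins of the basement membrane zone, Col15a1 and Col18a1 (the source of endostatin), stood at 0.30 (adjusted p 0.557) and 0.16 (adjusted p 0.686), and Col26a1 at 0.15 (adjusted p 0.688). With the deposited values each of these classes but the other fibrillar chains had positive values alone in ob/ob vehicle against wild type. After quantile normalization only the network chains did (3 of 3), with 4 of 6 beaded filament, 5 of 8 FACIT, 2 of 4 transmembrane, 1 of 2 multiplexin and 1 of 2 other chains positive.

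Between VE and ob/ob vehicle the class medians were 0.10 for beaded filament, -0.23 for network, -0.05 for FACIT, -0.01 for transmembrane, 0.11 for other fibrillar and 0.09 for multiplexin chains. Without VE array 2 the same medians were 0.14, -0.14, -0.23 (0 of 8 positive, against 3 of 8 with it), 0.08, 0.05 and -0.15. In VE against wild type they were 0.41 (6 of 6 positive), 0.03, 0.17 (8 of 8 positive), 0.07, 0.14 and 0.33 in the order given. Without VE array 2 they were 0.27 (6 of 6 positive), 0.04, 0.0058 (5 of 8 positive), 0.21, 0.05 and 0.08, so that the positive FACIT and multiplexin medians against wild type rested largely on that array. Col6a5, a collagen VI chain, stood at 0.66 (SE 0.284, adjusted p 0.334) against ob/ob vehicle and 0.66 (adjusted p 0.377) against wild type, above the other chains of its class. Without VE array 2 it was 0.27 in each, and Col6a1 (0.41 and 0.71) and Col6a2 (0.44 and 0.54) lay above it. Its value on VE array 2 was 6.46, against 4.95 to 5.41 on the other 8 arrays.

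**Figure D3:**
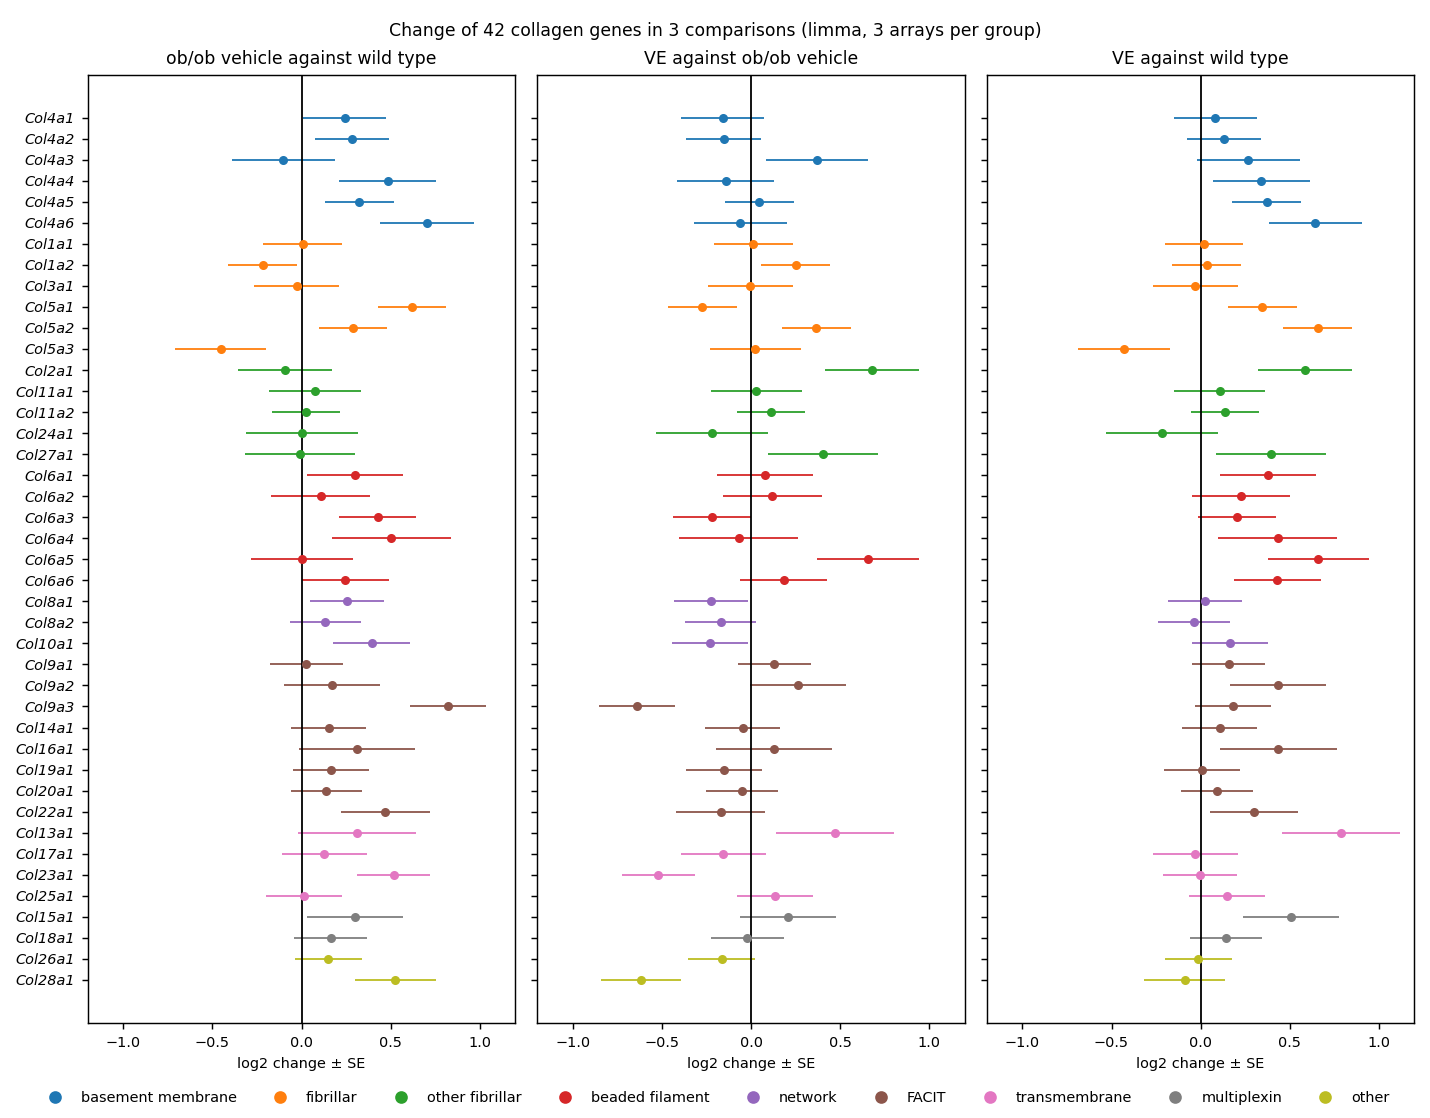
Log2 change with its SE (horizontal axis) of each of the 42 collagen genes, coloured by class, for ob/ob vehicle minus wild type (left), VE minus ob/ob vehicle (middle) and VE minus wild type (right), from limma with 3 arrays per group. Of the 42 changes 36, 20 and 34 are above 0 in the 3 panels, and 0 passed the adjusted threshold in each.

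Over the whole family, 36 of 42 changes were positive in ob/ob vehicle against wild type, with a median of 0.17, against 51.2% positive and a median of 0.02 over all probe sets. The dimmest of the 3 signal bands had the same median, 0.17, with 74.6% positive, and 23 of the 42 collagens lay in that band. After quantile normalization 25 of 42 were positive (median 0.07), after cyclic loess 27 (0.08) and after centring of arrays 30 (0.09). The 10 collagens above the median probe set were all positive (median 0.23), where all probe sets above the median stood at -0.21. These are not alike in signal, since only 2 collagens lay in the brightest band, where all probe sets stood at -0.27. In the middle band 17 collagens had a median of 0.24 (94.1% positive), against 0.07 (56.1%) for its probe sets. In VE against ob/ob vehicle 20 of 42 were positive (median -0.01), against 41.8% positive and a median of -0.07 over all probe sets. Centring moved the median of all probe sets by more than 0.1 in that comparison, to 0.06, and the collagen median moved with it to 0.11. In VE against wild type 34 of 42 were positive (median 0.16), against 41% positive and a median of -0.07 over all probe sets and 0.09 in their dimmest band. Without VE array 2 the count in VE against ob/ob vehicle was 15 (median -0.11), where all probe sets stood at 48.7% positive (median -0.01). The collagen share thus fell from above theirs to below it. The count against wild type was 31 without that array (median 0.07), where all probe sets stood at 50.1% (median 0.0017). With all arrays it was 34 after quantile normalization (median 0.22), 35 after cyclic loess (0.22) and 39 after centring (0.21). Against ob/ob vehicle the count was 26 under each of these scalings. Quantile normalization without VE array 2 gave 27 against wild type and 21 against ob/ob vehicle. The part of signal level in the shift was not tested.

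Groups that did not overlap were counted as a further description of the collagens. In ob/ob vehicle against wild type 9 collagens (21.4%) had all ob/ob arrays above all wild-type arrays. So did 15.8% of all probe sets and 19.9% of the dimmest band. For 1 collagen (2.38%) all ob/ob arrays lay below. This compares with 17.5% of all probe sets, 3.34% of the dimmest band and 14.1% of the middle band. In VE against ob/ob vehicle 3 collagens (7.14%) were higher without overlap, namely Col5a2, Col2a1 and Col6a5, against 4.62% of all probe sets. As many were lower without overlap, namely Col9a3, Col23a1 and Col28a1, against 11.9%. In VE against wild type 7 collagens (16.7%) were higher without overlap (Col4a5, Col4a6, Col5a1, Col5a2, Col6a5, Col13a1 and Col15a1), against 5.34% of all probe sets and 8.98% of the dimmest band. None was lower without overlap, against 11.5% of all probe sets, 3.57% of the dimmest band and 9.36% of the middle band. Of these 7, Col4a5, Col4a6, Col5a1, Col5a2 and Col15a1 were also among the 9 of ob/ob vehicle, and both comparisons share the wild-type arrays.

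**Figure D4:**
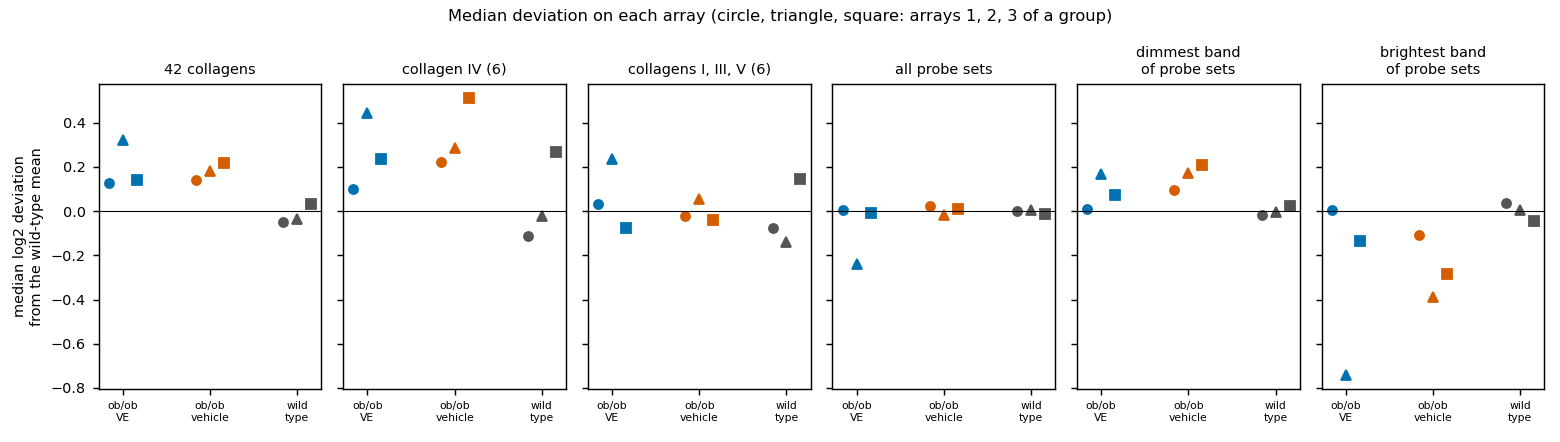
Median log2 deviation from the wild-type mean (vertical axis) on each of the 9 arrays, for the 42 collagens, the collagen IV genes, the genes of collagens I, III and V, all probe sets and the dimmest and brightest of 3 equal signal bands of probe sets. The collagen medians are 0.13 to 0.32 in VE, 0.14 to 0.22 in ob/ob vehicle and -0.05 to 0.03 in wild type, and the dimmest band stands at 0.01 to 0.17, 0.09 to 0.21 and -0.02 to 0.02.

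VE array 2 read many collagens high. It was above both other VE arrays for 25 of 42 collagens (59.5%), against 28.3% of all probe sets, and below both for 12 (28.6%), against 55.1%. It was at least 1 log2 unit above both for 6 (14.3%), against 2.77% of all probe sets. These shares of all probe sets are not matched for signal, and most collagens were dim. From the wild-type mean, the dimmest band had medians of 0.01, 0.17 and 0.07 on VE arrays 1, 2 and 3. The brightest band had 0.01, -0.74 and -0.14. Shares within a band were not computed. The largest gaps to the mean of VE arrays 1 and 3, chosen after their values were seen, were 1.31 for Col16a1, 1.30 for Col27a1, 1.28 for Col6a4, 1.24 for Col13a1 and 1.18 for Col6a5. Collagen VI chains stood at both ends, since Col6a1 and Col6a2 were lower on VE array 2 by 0.98 and 0.95 (gaps of -0.98 and -0.95). The changes of Col16a1, Col27a1 and Col6a4 in VE against wild type were 0.44, 0.40 and 0.43 with that array, and without it 0.00, -0.04 and 0.01. Those of Col6a1 and Col6a2 were 0.38 and 0.23 with it, and 0.71 and 0.54 without it.

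**Figure D5:**
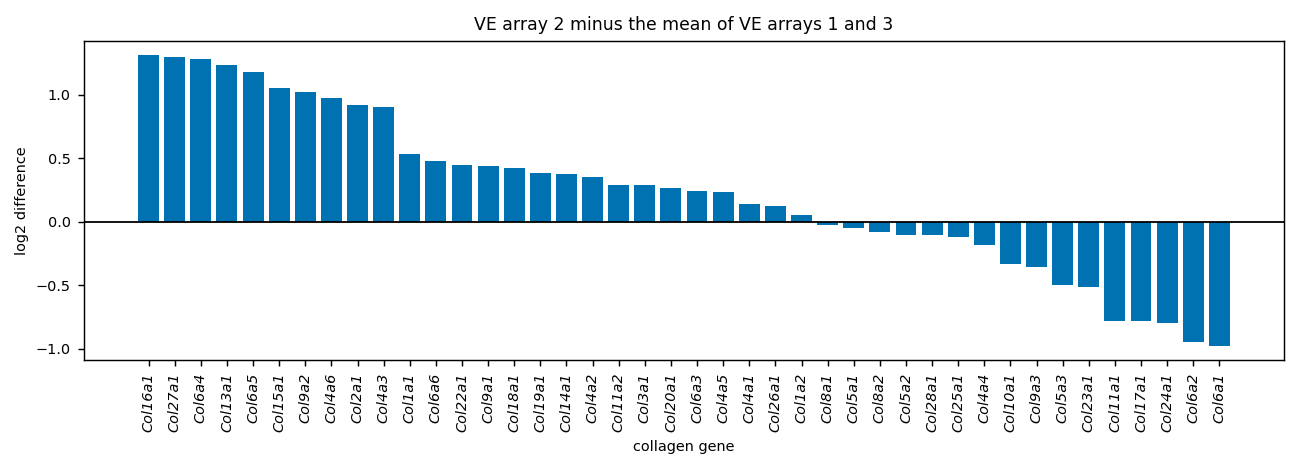
Log2 difference between VE array 2 and the mean of VE arrays 1 and 3 (vertical axis) for each collagen gene (horizontal axis), ordered by size, with 1 bar per gene. The bars run from 1.31 for Col16a1 to -0.98 for Col6a1, and 10 genes stand at 0.905 or higher.

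Genes that make, modify and bind collagen were read from lists written with earlier results of these data known. Of the 16 measured enzymes and chaperones that modify collagen chains (18 listed), 0 passed in any comparison. Their median in ob/ob vehicle against wild type was -0.27 with 12 of 16 changes negative, where the collagens had a positive median. These lists were not matched for signal, and P4ha1 read 10.69 to 12.73 while Serpinh1 read 5.24 to 6.94. In that comparison all probe sets above the median stood at -0.21 (30.8% positive) and those below it at 0.17 (71.7% positive). In ob/ob vehicle against wild type Serpinh1, the collagen chaperone HSP47, stood at -0.83 (SE 0.287, adjusted p 0.141) and Plod1, a lysyl hydroxylase, at -0.68 (SE 0.209, adjusted p 0.105). P3h3 and P3h4, of the prolyl 3-hydroxylase family, went opposite ways, at 0.76 (SE 0.209, adjusted p 0.0816) and -0.74 (SE 0.230, adjusted p 0.108). Of 11 genes of procollagen processing and cross-linking (13 listed) 0 passed (medians 0.03 in ob/ob vehicle against wild type, 0.02 in VE against ob/ob vehicle and -0.18 in VE against wild type), and Loxl1, of the lysyl oxidase family, stood at -0.62 (adjusted p 0.122). Of 14 genes of collagen breakdown and its inhibitors (15 listed) 0 passed (medians -0.05, -0.02 and -0.01), with Timp3, a metalloproteinase inhibitor bound to matrix, at -1.04 (SE 0.255, adjusted p 0.0646). Of 8 collagen receptors (10 listed) 0 passed (medians -0.17, 0.07 and -0.01). Itga2, a collagen-binding integrin chain, was likewise highest in ob/ob vehicle mice, with 5.42, 5.39 and 5.27 in VE mice, 5.90, 6.10 and 6.15 in ob/ob vehicle mice, and 5.23, 5.37 and 5.47 in wild-type mice. Its change was 0.69 (adjusted p 0.0788) against wild type and -0.69 (adjusted p 0.113) in VE against ob/ob vehicle.

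The laminins, nidogens and proteoglycans that share the basement membrane with collagen IV had 0 of 14 measured genes called (15 listed), with medians of 0.01, -0.01 and 0.0017 in the same 3 comparisons. Lamc3, a laminin gamma chain, stood at 0.76 (adjusted p 0.0959) and Lamb2, a laminin beta chain, at -0.58 (adjusted p 0.141) in ob/ob vehicle against wild type. The lowest change of the list was that of Lamb1, another laminin beta chain, at -1.12 in ob/ob vehicle and -1.22 in VE, each against wild type. Lamb1 had 6.98, 5.34 and 6.43 in VE mice, 6.74, 5.98 and 6.31 in ob/ob vehicle mice, and 6.91, 7.95 and 7.54 in wild-type mice. Of 16 small leucine-rich proteoglycans and other fibril partners (17 listed), Prelp alone passed. All probe sets called were 1.27% in ob/ob vehicle and 0.0991% in VE, each against wild type. In ob/ob vehicle against wild type 13 of 16 changes were negative (median -0.16). Positive there were 51.2% of all probe sets, and 30.8% of those above the median. Prelp, which anchors basement membranes to the collagen below, had 7.66, 8.25 and 8.21 in VE mice, 8.24, 8.54 and 8.44 in ob/ob vehicle mice, and 9.37, 9.60 and 9.30 in wild-type mice. It fell by 1.02 in ob/ob vehicle (SE 0.217, adjusted p 0.0455) and fell by 1.38 in VE (SE 0.217, adjusted p 0.0472), each against wild type. Over the alternatives its adjusted p ran from 0.00285 to 0.199 in ob/ob vehicle and from 6.66e-05 to 0.278 in VE, and both calls ended without VE array 3 and without any single ob/ob vehicle or wild-type array.

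Markers of the cells that make brain collagen were given beside these values, and their part in them was not tested. In bulk tissue, fewer cells of a type and less RNA per cell cannot be told apart. Of 13 endothelial markers (14 listed) 0 passed, and their medians by array were -0.32 to 0.03 in VE, -0.41 to -0.06 in ob/ob vehicle and -0.10 to 0.02 in wild type, with 1 ob/ob vehicle array inside the wild-type range. Of 10 pericyte markers 0 passed (-0.20 to 0.05, -0.32 to -0.13 and -0.11 to 0.10), and of 6 smooth muscle markers 0 (-0.14 to 0.15, 0.04 to 0.22 and -0.02 to 0.02). Of 14 markers of meningeal and perivascular fibroblasts (15 listed) 0 passed, with -0.34 to -0.03 in VE, -0.17 to 0.01 in ob/ob vehicle and -0.07 to 0.13 in wild type. Of 11 choroid plexus markers (12 listed) Folr1 and Kl passed as lower in ob/ob vehicle than in wild type. Their changes were -2.06 and -2.01 (adjusted p 0.0236 and 0.0434), and 1.27% of all probe sets were called in that comparison. The choroid plexus list had medians by array of -0.51 to -0.33 in VE, -1.17 to -0.41 in ob/ob vehicle and -0.35 to 0.35 in wild type. The calls of Folr1 and Kl ended without any single ob/ob vehicle array and without wild-type array 2 or 3, and that of Kl also without VE array 3. The medians of the neuron, oligodendrocyte, astrocyte and microglia lists were -0.54, -1.17, -0.53 and -0.74 in ob/ob vehicle against wild type. Called were 0 of 8, 1 of 6, 2 of 7 and 1 of 6, all lower, against 1.27% of all probe sets. Several of these markers, such as Snap25 and Mbp, were bright, and the brightest band of all probe sets stood at -0.27. The calls in these lists were Cldn11, Gfap, Aqp4 and C1qb, and each ended without any single ob/ob vehicle or wild-type array. The adipocyte list stood at 0.14, with 0 of 7 called.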

How the data were processed

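Brain RNA (100 ng per sample, per the labels' protocols) was hybridized to Clariom S mouse arrays. The deposited values are log2 signals. Per the design text, the authors ran Transcriptome Analysis Console 4.0.2 on the scans, which applied signal space transformation before robust multi-array averaging. They were used without further normalization. Arrays have no sequencing depth, and their number, 3 per group, limits the precision. Symbols came from the platform annotation. Of 22206 probe sets, 19572 had 1 symbol and 2634 had no single symbol. A mean per group was fitted over 9 arrays with limma 3.58.1 (R 4.3.3), with variances moderated by empirical Bayes (residual degrees of freedom 6, prior 7.03) and p-values adjusted by Benjamini-Hochberg across all probe sets. Calls were made at adjusted p under 0.05. Fits were checked on simulated data. Detection calls were not used here.

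The collagen genes and all gene lists were chosen with earlier results of these data known, so lists got no test. Values on every array are given for the genes of collagens I, III, IV and V, for any called collagen and for the 3 smallest p of a comparison. Of other classes up to 2 genes with the smallest p in ob/ob vehicle against wild type are named, and of each related list up to 4. Col23a1, Col6a5, Col9a1, Col9a2, Col16a1, Col27a1, Col6a1 and Col6a2 were given in more detail after their values were seen. Start windows run from 250 bases before to 50 after each start in RefSeq (GRCm38.p6) and were matched by Entrez gene identifier for 34 of 42 collagens. The genome build behind the probe sets was not given in the sources used here.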

Additional observations from a re-analysis of the deposited data

How the results depend on the processing

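Across 21 alternatives, from 14 planned kinds, the direction of each called gene was kept. The choice of the lowest probe set of a gene gave no other value, since each collagen had 1 probe set. The number of collagens called in ob/ob vehicle against wild type was 0 with the deposited values. It was 5 by the rule of the design text (unadjusted p under 0.05 and a fold over 1.1), which called 20.1% of all probe sets. It was 1 (Col9a3) at adjusted p under 0.1, after quantile normalization, after cyclic loess and after quantile normalization of the 8 arrays without VE array 2. It was 4 with array weights (Col4a6, Col5a1, Col9a3 and Col23a1), where VE array 2 had a weight of 0.145 against at least 0.637 for the others and 16.2% of all probe sets were called. It was 3 (Col4a6, Col5a1 and Col9a3) with the 2 compared groups alone (11.8% of all called). Leaving out 1 array at a time gave 0 to 3, with the 3 without VE array 2, where 13.4% of all probe sets were called. In VE against ob/ob vehicle the count was 5 by the rule of the design text and 2 with array weights (Col9a3 and Col28a1), and in VE against wild type 5 and 4 (Col5a2, Col11a1, Col6a1 and Col6a2). The median of the genes of collagens I, III and V in VE against ob/ob vehicle was 0.18 after quantile normalization without VE array 2, and -0.041 to 0.15 with 1 array left out, against 0.02. The cause of these shifts was not tested.

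Deviations of same-numbered arrays correlated at -0.03 to 0.33. These few correlations cannot decide whether the numbers pair the mice, and the labels do not say so. With the replicate number as a block 0 collagens were called in each comparison, and the calls over all probe sets were 251, 144 and 2, against 281, 108 and 22 without it. Among the 8 calls in the related and marker lists, that block ended those of Kl, Aqp4 and Cldn11 in ob/ob vehicle (adjusted p 0.0526, 0.0538 and 0.0538) and of Prelp in VE (adjusted p 0.0643), each against wild type. Calls over all probe sets in ob/ob vehicle against wild type were 281 (42.3% higher) with the deposited values, 631 (60.4%) after quantile normalization, 808 (60%) after cyclic loess, 614 (27%) after centring, 1970 (53.1%) after quantile normalization without VE array 2, 354 (50.6%) with trend and robust moderation and 206 (29.6%) with 1-symbol probe sets. Of single collagens, 104 values with no call changed sign and 31 gained a call over the 26 named genes and 3 comparisons. Weak probe signals limit the collagens: 23 of 42 lay in the dimmest of 3 equal signal bands of probe sets.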
